A study of Homo sapiens with 54 samples.

Results

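Keratins are the proteins of the epithelial cytoplasmic filament network, and 10 of their genes are described here across every condition of the experiment: the simple-epithelial keratins KRT7, KRT8, KRT18 and KRT19, the basal keratins KRT5 and KRT14, the keratins of activated epithelium KRT6A, KRT16 and KRT17, and the hair-type keratin KRT81. They were taken by gene symbol, 10 of the 27470 rows of the expression table, and all 10 symbols were found. A further 45 keratin genes of the table serve for comparison. RNA was measured in 54 libraries from a pair of triple negative breast cancer (TNBC) cell lines, SUM1315, which carries mutant BRCA1, and MDA-MB-468, in which BRCA1 is wild type, with 3 libraries in each of 18 conditions. Parental SUM1315 cells were left untreated or treated overnight with 8 µM olaparib (a PARP inhibitor), with cisplatin (CDDP) at 2 or 4 µM, or with olaparib and either CDDP dose. Parental MDA-MB-468 cells had the same design with 3 µM olaparib and 1 or 2.5 µM CDDP. Olaparib-resistant (OlaR) derivatives, raised by stepwise olaparib exposure over months, stayed in 25 µM (SUM1315) or 15 µM (MDA-MB-468) olaparib throughout and were sampled without CDDP and at both CDDP doses. No OlaR culture without olaparib was included, and 1 OlaR culture is described for each line, so that resistance, the higher olaparib dose and the long exposure cannot be told apart. Nothing in the labels states that the 3 libraries came from separate cultures, and p-values then measure only the spread between these libraries.

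A keratin filament is built from pairs of 1 type II (basic) and 1 type I (acidic) chain, so cells usually express a type II gene together with a type I partner. Luminal cells of the breast are known for KRT8 with KRT18, and for KRT7 and KRT19, whereas basal cells are known for KRT5 with KRT14, and KRT6A, KRT16 and KRT17 are known for their induction in wounded or hyperproliferative epithelium. KRT81 is best known from hair but is also found in breast cancer cell lines. The 5 type II members (KRT5, KRT6A, KRT7, KRT8, KRT81) and the type I gene KRT18 lie on chromosome 12, and the 4 remaining type I members lie on chromosome 17 (GRCh38, GENCODE v44). KRT5 spans chr12:52514575-52520530 and KRT6A chr12:52487176-52493257, both on the minus strand and with no overlapping gene. KRT17 spans chr17:41619442-41624842 on the minus strand, overlapping an unnamed gene on the plus strand, close to KRT16 at chr17:41609778-41615899 and KRT14 at chr17:41582279-41586895. KRT19 lies at chr17:41523617-41528308. KRT8 (chr12:52897187-52949954, minus) overlaps KRT18 (chr12:52948871-52952906, plus), and KRT81 (chr12:52285913-52291534, minus) lies within the span of KRT86. KRT7 (chr12:52232520-52252186, plus) contains the antisense gene KRT7-AS, and its 3′ end also overlaps KRT86, which starts at 52249300 on the same strand. The strand setting of the counting is not given in the sources used here. Reads of overlapping genes, and of the near-identical copies KRT6A and KRT6B or KRT81 and KRT86, may therefore be shared among them.

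The promoter window of KRT5 is shown because KRT5 had the highest OlaR to control ratio of the members tested in MDA-MB-468. KRT5 and KRT8 were the 2 of 10 members held in the RefSeq promoter table (GRCh38.p14). The 250 bases before the KRT5 transcript start, chr12:52520395-52520644 on the minus strand, lie just before the RefSeq start and partly inside the GENCODE span above. They read 5′ to 3′ as follows, with capitals marking the run ATAAAA.
KRT5: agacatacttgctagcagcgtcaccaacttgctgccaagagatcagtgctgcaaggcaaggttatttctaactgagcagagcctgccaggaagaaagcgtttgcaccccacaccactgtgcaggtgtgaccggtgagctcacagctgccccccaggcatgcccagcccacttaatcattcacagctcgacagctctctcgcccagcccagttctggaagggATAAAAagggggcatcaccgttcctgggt
On both strands, ATAAAA was found once in this window, 29 bases before the start, and in 14.8% of the 35116 promoter windows of the same length; this run was searched after the sequence had been seen. The TATA box TATAAA (10.7% of windows), the AP-1 site TGANTCA (6.57%) and the AP-2 site GCCNNNGGC (19.8%) were not found in these 250 bases. A match in letters is a description and not a binding site.

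Values are adjusted read counts, the counts that the submitters scaled to a common library size. The library kit primes at the 3′ end of the transcript, so that 1 read stands for about 1 transcript whatever its length, and values were not divided by gene length. Whole reads recovered from the adjusted values came to between 2070301 and 9268162 per library, and the OlaR libraries (2070301 to 4676284 in MDA-MB-468, 3446613 to 4665505 in SUM1315) were shallower than the parental libraries (5574767 to 9268162 and 4977284 to 7540920). In bulk RNA, fewer cells of a type and less RNA per cell cannot be told apart. The epithelial markers EPCAM, CDH1, CLDN4, CLDN7 and ESRP1 were all at a mean of 10 or more in MDA-MB-468 (summed level 5972 to 7169 per library), and 0 of 5 reached that in SUM1315 (2.68 to 25.5). The mesenchymal markers VIM, ZEB1, CDH2, FN1 and SPARC summed to 12117 to 18682 in SUM1315 and to 22.3 to 94.2 in MDA-MB-468, so that SUM1315, labelled as a breast cancer line, lacked these epithelial markers. In SUM1315 the mesenchymal sum was 15403 to 18682 in the parental and 12117 to 14448 in the OlaR libraries. The 5 markers did not move as one. Against olaparib-treated parental cells, 1 was called higher and 4 lower in OlaR cells (47.2% of all genes called). Against untreated cells, 2 were higher and 3 lower (54.7%). FN1 rose, from a mean of 2000 untreated and 1442 after olaparib to 2430 in OlaR cells. Leukocyte markers summed to at most 15.7 in any library. The endothelial markers summed to 118 to 208 in the parental and 45.0 to 111 in the OlaR libraries of SUM1315 (PECAM1). The hormone receptor and HER2 genes summed to 39.3 to 109 in the parental and 133 to 232 in the OlaR libraries of MDA-MB-468. Of these, ESR1 was at a mean of 40.3 after olaparib and 216 in OlaR cells, while ERBB2 (HER2) fell from 25.8 to 11.3. The part of these shifts, and of depth, in the keratin results was not tested.

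The untreated lines carried different keratins. MDA-MB-468 was a KRT19-dominated line, with KRT7, KRT8 and KRT18 next and KRT5 and KRT17 following, whereas SUM1315 expressed KRT17 and KRT7 most, and KRT19 gave no read in its 3 untreated libraries. KRT19, a type I keratin of simple epithelium, was at 13496, 14508 and 13632 adjusted counts in untreated MDA-MB-468, and against the limit that a count of 0 allows (3 reads over the group) it was at least 15999-fold higher there than in SUM1315. KRT5, the type II keratin of basal cells, was at 258, 247 and 272 in MDA-MB-468 and at 0.902, 0.00555 and 1.03 in SUM1315. From 1089 and 2 reads, its ratio per read of MDA-MB-468 to SUM1315 was 448, with an exact 95% counting interval of 124 to 3700. KRT8 was at 668, 635 and 745 in MDA-MB-468 against 35.2, 39.2 and 17.7 in SUM1315. That is a log2 difference of -4.50 ± 0.23 (SE) for SUM1315 minus MDA-MB-468 (limma, adjusted p = 1.28e-22).

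KRT17 went the other way. It stood at 1490, 1500 and 1613 in untreated SUM1315 and at 260, 249 and 248 in MDA-MB-468, a log2 difference of 2.60 ± 0.07 (limma, adjusted p = 1.91e-32). KRT16 (1.84 ± 0.22) and KRT14 (1.78 ± 0.52) were also higher in SUM1315, while KRT81 (-2.51 ± 0.45), KRT18 (-0.84 ± 0.10) and KRT7 (-0.57 ± 0.09) were lower there. KRT6A was near 0 in both lines, at most 2 reads in any untreated library. In all, 9 of the 10 members differed at an adjusted p of 0.05 or less, the threshold for a call throughout, where 72.7% of the 14460 genes tested across both lines did. KRT19 and KRT6A reached the filter on low values in 1 line only, KRT19 in MDA-MB-468 and KRT6A in SUM1315, and of the other 8 members 3 were higher and 5 lower in SUM1315. Sequencing was done in batches of 27 libraries, and which libraries shared a batch is not given in the sources used here, so line and batch cannot be told apart. The same limit holds for the comparisons of OlaR with parental cells.

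**Figure D1:**
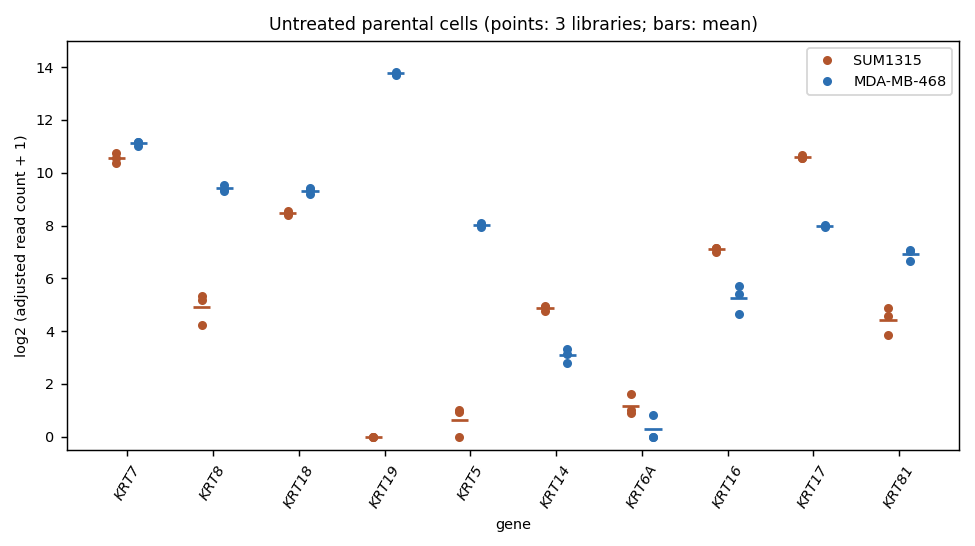
Level of each keratin gene (x axis) in the untreated parental cells of both lines on a log2 (adjusted read count + 1) scale (y axis), with 1 point per library and a bar at the mean of 3. KRT19, KRT5 and KRT8 were lower and KRT17 was higher in every SUM1315 library than in any MDA-MB-468 library, and KRT6A was near 0 in both.

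Within a line, neighbours in the order of levels were not always separate. In untreated MDA-MB-468 the libraries of KRT8 (635 to 745) and KRT18 (584 to 678) overlapped, as did those of KRT5 (247 to 272) and KRT17 (248 to 260). In untreated SUM1315 the libraries of KRT17 (1490 to 1613) and KRT7 (1305 to 1705) overlapped, and KRT8, KRT14 and KRT81 all fell between 13.6 and 39.2. The 10 members took 0.342% ± 0.00388 (SD, n = 3) of all reads in untreated MDA-MB-468 and 0.0601% ± 0.0032 in untreated SUM1315. In OlaR cells their share was 0.426% ± 0.00854 and 0.108% ± 0.00073.

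Keratin genes were tested within each line on all of its 27 libraries. KRT19 in SUM1315 and KRT6A in MDA-MB-468 did not reach 10 adjusted counts in 3 libraries and were not tested, which left 9 of 10 members in each line, and in SUM1315 KRT5 and KRT6A passed only through their OlaR libraries. After olaparib alone, 7 of 9 members changed in SUM1315 (1 higher, 6 lower) where 36.0% of 13133 genes did, and 6 of 9 in MDA-MB-468 (4 higher, 2 lower) where 21.5% of 13012 genes did. With CDDP alone, 7 of 9 members changed at 2 µM (33.9% of all genes) and 6 of 9 at 4 µM (43.9%) in SUM1315. In MDA-MB-468, 4 of 9 changed at 1 µM (20.0%) and 5 of 9 at 2.5 µM (25.1%). In SUM1315 the median absolute log2 difference of the members was 1.33 after olaparib, against 0.39 over all genes tested. In MDA-MB-468 it was 0.38 against 0.21.

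CDDP was also added to olaparib and given to OlaR cells. Against olaparib alone, olaparib with CDDP changed 0 of 9 members at 2 µM (3.76% of all genes) and 1 of 9 at 4 µM (8.44%) in SUM1315. Of these 9 members, 5 (KRT7, KRT8, KRT14, KRT16 and KRT17) had an unadjusted p of at most 0.05 in limma at 2 µM. In MDA-MB-468 the same comparison changed 2 of 9 at 1 µM (5.26%) and 5 of 9 at 2.5 µM (23.1%), the latter as many as with 2.5 µM CDDP alone. Against the higher CDDP dose alone, the addition of olaparib changed 4 of 9 members in SUM1315 (12.8%) and 2 of 9 in MDA-MB-468 (11.9%). CDDP in OlaR cells changed 1 of 9 members at 2 µM (1.42%) and 2 of 9 at 4 µM (16.7%) in SUM1315, and 1 of 9 at 1 µM (4.76%) and 1 of 9 at 2.5 µM (18.7%) in MDA-MB-468.

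OlaR cells differed from olaparib-treated parental cells in 6 of 9 members in each line, 6 higher in SUM1315 and 4 higher and 2 lower in MDA-MB-468, where 47.2% and 51.5% of all genes were called. Against untreated parental cells, a comparison added after the data were seen, 6 of 9 members were called in SUM1315 (54.7% of all genes) and 6 of 9 in MDA-MB-468 (53.5%). In SUM1315, KRT5 and KRT6A could be tested only because they were high in OlaR cells, and 4 of the other 7 members were called against olaparib. With so many of all genes called, these counts do not set the members apart. The median absolute log2 difference between OlaR and olaparib-treated parental cells was 2.08 for the members tested, KRT5 and KRT6A included, and 0.46 for all genes in SUM1315, and 0.44 and 0.39 in MDA-MB-468. Without KRT5 and KRT6A, the median log2 difference of the other 7 in SUM1315 was 1.98. The comparisons of OlaR with olaparib and of olaparib with control share the olaparib-treated libraries, and the CDDP comparisons share the control libraries, so their values are given side by side.

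**Figure D2:**
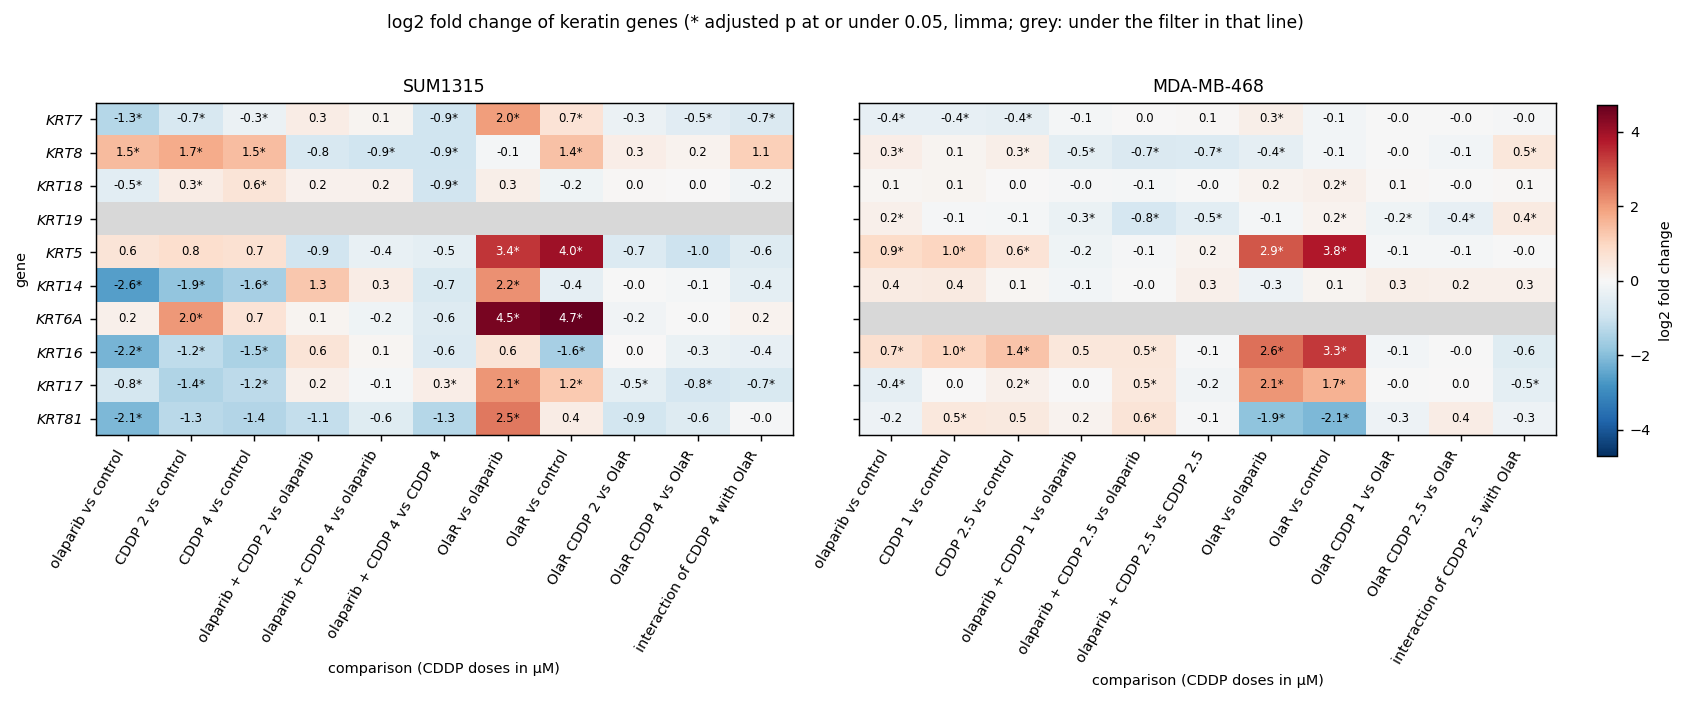
Log2 fold change of each keratin gene (rows) in each comparison (columns) within SUM1315 and MDA-MB-468, with the value written in the cell, an asterisk for an adjusted p of 0.05 or less (limma) and grey for genes under the filter. In SUM1315, the asterisks of KRT5 and KRT6A for OlaR against olaparib or control are not to be read as tests. Both genes reached the filter there only through OlaR libraries, so that their direction was fixed. KRT5 and KRT17 were higher in OlaR cells of both lines, while KRT81 was higher in SUM1315 and lower in MDA-MB-468 against olaparib-treated parental cells.

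Among the basal keratins, KRT5 was higher in OlaR cells of both lines. In MDA-MB-468 its adjusted counts were 258, 247 and 272 untreated, 521, 498 and 412 after olaparib, 527, 556 and 499 after 1 µM CDDP, and 3731, 3694 and 3339 in OlaR cells. All OlaR libraries, with or without CDDP, lay between 3037 and 3760, and no parental library exceeded 556. The log2 difference of OlaR from olaparib was 2.91 ± 0.07 (limma, adjusted p = 1.38e-35) and from control 3.79 ± 0.07 (limma, adjusted p = 3.64e-41), 7.54-fold and 13.8-fold. In parental MDA-MB-468, KRT5 also rose with every drug: 0.87 ± 0.07 with olaparib, 1.02 ± 0.07 with 1 µM CDDP and 0.64 ± 0.07 with 2.5 µM CDDP. CDDP on top of olaparib did not pass the test at either dose (-0.20 and -0.06 on the log2 scale).

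In SUM1315 the same gene was measured from few reads. KRT5 gave 0 to 4 reads in each of the 18 parental libraries and 14, 17 and 13 reads in OlaR cells, with 9, 12 and 11 reads in OlaR cells at 2 µM CDDP and 14, 9 and 4 at 4 µM. The ratio per read of OlaR to olaparib-treated parental cells was 12.5 (exact 95% counting interval 5.32 to 36.0), from 44 and 6 reads. Its log2 difference was 3.38 ± 0.69 on the log2(value + 1) scale, which understates low genes, and no test is given for it, since KRT5 reached the filter in this line only through the OlaR libraries in which it was high. Even so, the OlaR mean in SUM1315 (24.0 ± 3.83, SD, n = 3) was below the untreated mean of MDA-MB-468 (259). The change of KRT5 did not pass the test of a difference between the lines (0.46 ± 0.57, SUM1315 minus MDA-MB-468, limma, adjusted p = 0.544), and with a pseudocount of 5 this value turned to -0.80 (limma, adjusted p = 0.00858) and without SUM1315 olaparib replicate 1 to -0.165 (limma, adjusted p = 0.835).

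KRT14, the usual type I partner of KRT5, did not follow it in MDA-MB-468. It stayed between 2.03 and 21.8 adjusted counts in all 27 libraries of that line, and no comparison was called. In SUM1315, KRT14 fell from 29.7, 25.9 and 29.0 in untreated cells to 1.79, 8.85 and 3.00 after olaparib, a log2 difference of -2.61 ± 0.51 (limma, adjusted p = 1.20e-04). It was also lower with 2 µM (-1.87 ± 0.51) and 4 µM CDDP (-1.55 ± 0.51), the latter without a call when CDDP 4 replicate 3 was left out (-1.20, limma, adjusted p = 0.0877). OlaR cells had 32.1, 12.7 and 21.1, higher than olaparib-treated cells (2.17 ± 0.51, limma, adjusted p = 6.90e-04) and overlapping the untreated libraries (-0.44 ± 0.51, limma, adjusted p = 0.487). From 41 and 15 reads, the ratio per read of OlaR to olaparib was 4.67 (exact 95% counting interval 2.53 to 9.08). The OlaR change of KRT14 differed between the lines by 2.42 ± 0.73 (limma, adjusted p = 0.00658).

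KRT17, a type I keratin of activated and basal-like epithelium, rose in OlaR cells of both lines. In SUM1315 its adjusted counts were 1490, 1500 and 1613 untreated, 820, 838 and 900 after olaparib, and 3612, 3447 and 3733 in OlaR cells. In MDA-MB-468 they were 260, 249 and 248, then 191, 212 and 168, then 789, 827 and 778. In both lines the olaparib libraries were the lowest and the OlaR libraries the highest of these 3 groups, with no overlap. OlaR exceeded olaparib by 2.08 ± 0.09 in SUM1315 (limma, adjusted p = 1.76e-19) and by 2.07 ± 0.09 in MDA-MB-468 (limma, adjusted p = 1.87e-26), a difference between the lines of 0.01 with a 95% interval of -0.20 to 0.22. Against untreated cells the OlaR rise was smaller, 1.23 ± 0.09 and 1.66 ± 0.09.

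CDDP moved KRT17 differently in the settings tested. Parental SUM1315 fell to 581, 521 and 607 at 2 µM (-1.43 ± 0.09, limma, adjusted p = 1.18e-14) and to 662, 657 and 629 at 4 µM (-1.24 ± 0.09). SUM1315 OlaR cells fell to 2660, 2354 and 2895 at 2 µM (-0.45 ± 0.09, limma, adjusted p = 0.00227) and to 1965, 2103 and 2186 at 4 µM (-0.79 ± 0.09, limma, adjusted p = 3.61e-08), which kept them above every parental library. The interaction of resistance with 4 µM CDDP, in which the effect in OlaR cells was compared with that of CDDP added to olaparib in parental cells, was -0.71 ± 0.12 (limma, adjusted p = 3.11e-04). In MDA-MB-468, KRT17 was 0.24 ± 0.09 higher with 2.5 µM CDDP, a call lost without any 1 of 5 libraries (lowest value 0.22, without CDDP 2.5 replicate 2, limma, adjusted p = 0.0991). It was 0.48 ± 0.09 higher when 2.5 µM was added to olaparib (limma, adjusted p = 1.83e-05), and was not called in OlaR cells (0.01 ± 0.09; 95% interval -0.16 to 0.19), an interaction of -0.47 ± 0.12 (limma, adjusted p = 0.00519). The combination with 4 µM CDDP in SUM1315 was 0.31 ± 0.09 above CDDP alone, lost without CDDP 4 replicate 3 (0.29, limma, adjusted p = 0.0577) or olaparib + CDDP 4 replicate 2 (0.28, limma, adjusted p = 0.0586).

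KRT16, a further type I keratin of activated epithelium and a partner of KRT6A, rose in MDA-MB-468 OlaR cells. Its adjusted counts there were 24.2, 51.2 and 41.9 untreated, 69.9, 65.0 and 55.0 after olaparib, 78.0, 112 and 104 after 2.5 µM CDDP, and 375, 395 and 386 in OlaR cells. The OlaR libraries stood apart from all parental libraries, the highest of which was at 116. OlaR exceeded olaparib by 2.59 ± 0.17 (limma, adjusted p = 4.47e-18). The parental drug effects were 0.74 ± 0.17 for olaparib, lost without control replicate 1 (0.43, limma, adjusted p = 0.0679), 1.01 ± 0.17 for 1 µM and 1.35 ± 0.17 for 2.5 µM CDDP (limma, adjusted p = 2.71e-08). Adding 2.5 µM CDDP to olaparib gave 0.54 ± 0.17 (limma, adjusted p = 0.0173), lost without olaparib replicate 3 (0.45, limma, adjusted p = 0.0937) or olaparib + CDDP 2.5 replicate 2 (0.38, limma, adjusted p = 0.171).

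In SUM1315, KRT16 went down. It stood at 127, 141 and 142 in untreated cells, 36.6, 31.6 and 21.0 after olaparib, and 61.4, 51.7 and 62.7 after 2 µM CDDP. Every treated or OlaR library of SUM1315 lay below the 3 untreated libraries. Olaparib lowered it by a log2 difference of -2.20 ± 0.27 (limma, adjusted p = 5.86e-08), and OlaR cells (54.5, 38.1 and 43.5) were lower than control by -1.58 ± 0.27 (limma, adjusted p = 6.18e-06) but not separated by the test from olaparib (0.61 ± 0.27, limma, adjusted p = 0.0561), a difference that was called without olaparib replicate 1 (0.78, limma, adjusted p = 0.0329) or OlaR replicate 2 (0.73, limma, adjusted p = 0.0473). The lines differed in the OlaR change of KRT16 by -1.98 ± 0.32 (limma, adjusted p = 1.63e-06) and in its change at the higher CDDP dose by -2.83 ± 0.32 (limma, adjusted p = 1.75e-09), SUM1315 minus MDA-MB-468.

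KRT6A, the type II partner of KRT16 and KRT17 in activated epithelium, was low in parental SUM1315 and higher in its OlaR cells. It gave 1, 1 and 2 reads in untreated SUM1315, 3, 0 and 4 after olaparib, and 45, 29 and 35 in OlaR cells. The 9 OlaR libraries of SUM1315 lay between 46.2 and 73.5 adjusted counts and the 18 parental ones between 0 and 14.8. From 109 and 7 reads, the ratio per read of OlaR to olaparib was 26.6 (exact 95% counting interval 12.5 to 67.7). Parental cells at 2 µM CDDP had 6, 10 and 17 reads, 7.09 times control per read (2.52 to 27.5), a call (limma, adjusted p = 0.0213) lost without control replicate 1 (adjusted p = 0.0628) or CDDP 2 replicate 3 (adjusted p = 0.0967). MDA-MB-468 had at most 7 reads of KRT6A in any library. Its near-identical neighbour KRT6B was read there instead, at 61.9, 61.9 and 42.0 untreated, 55.0, 53.8 and 67.4 after olaparib and 274, 230 and 232 in OlaR cells (2.05 ± 0.20 above olaparib, limma, adjusted p = 1.28e-12).

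**Figure D3:**
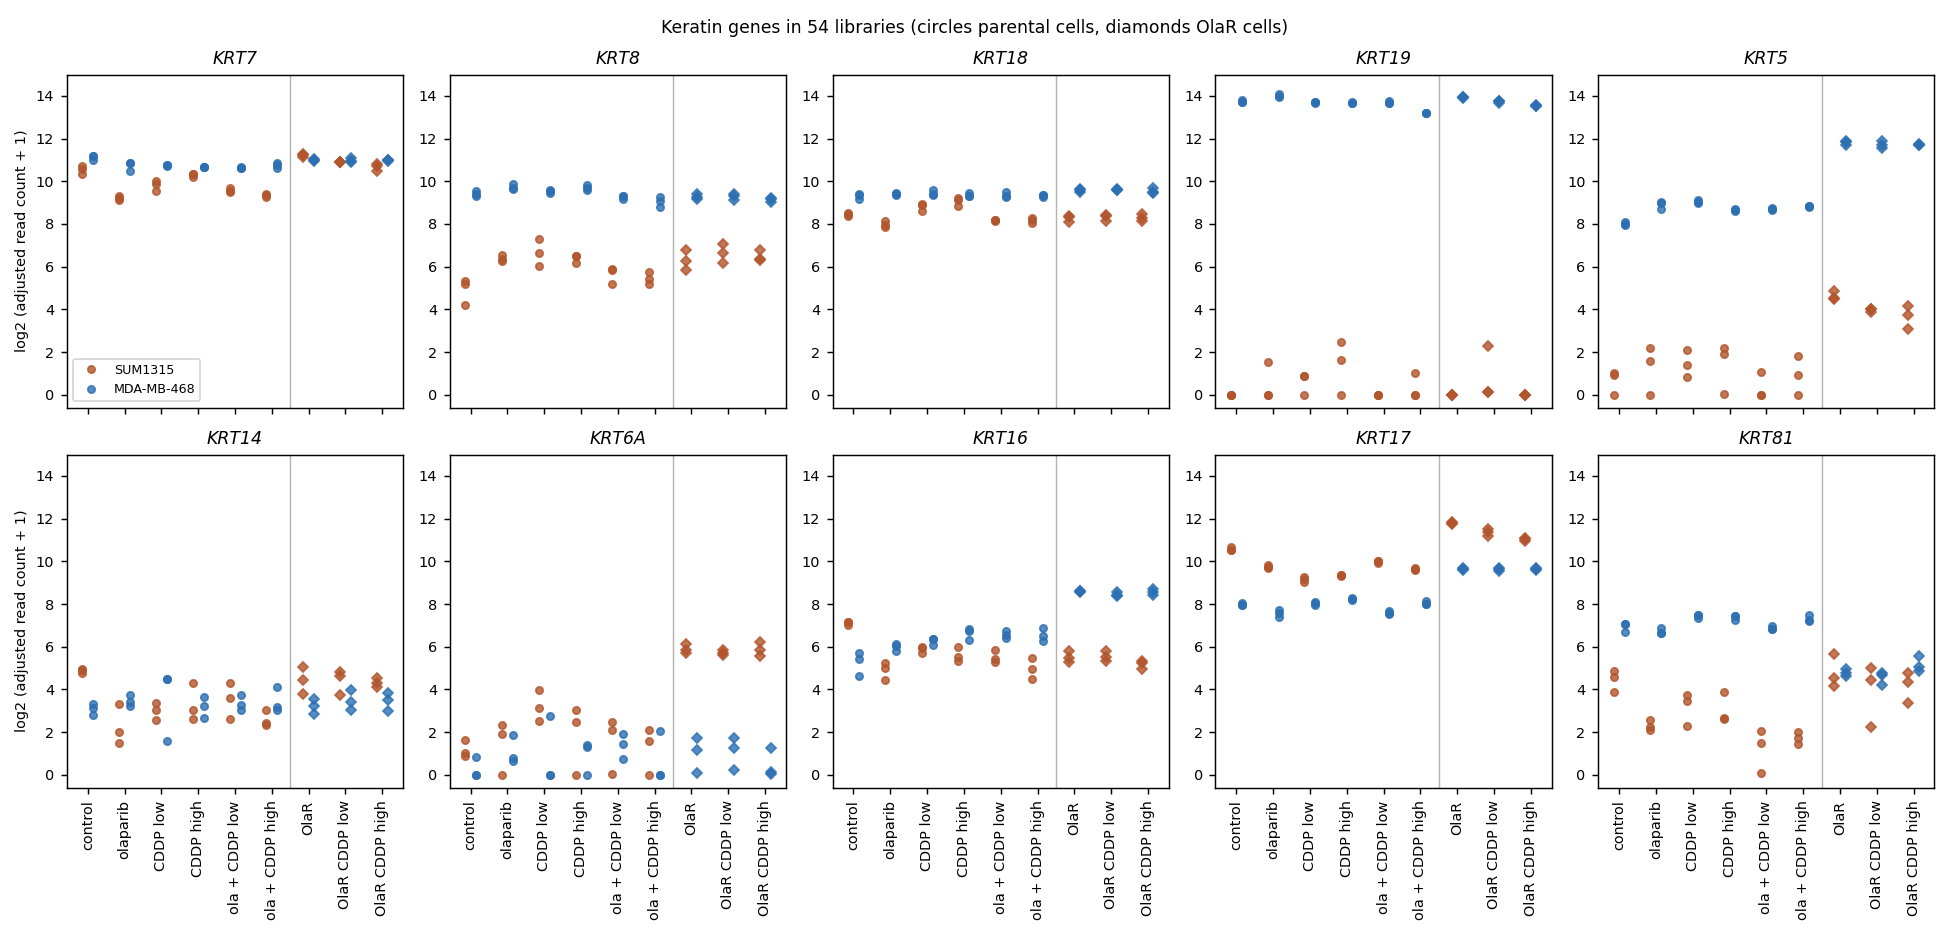
Level of each keratin gene in all 54 libraries on a log2 (adjusted read count + 1) scale (y axis) over the 9 conditions (x axis; low and high CDDP are 2 and 4 µM in SUM1315, 1 and 2.5 µM in MDA-MB-468), with 1 point per library, SUM1315 in brown and MDA-MB-468 in blue, circles for parental and diamonds for OlaR cells. KRT5 and KRT17 stand higher in the OlaR libraries of both lines, KRT6A in those of SUM1315 and KRT16 in those of MDA-MB-468, and KRT19 stays near 0 in SUM1315.

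In MDA-MB-468, the difference of OlaR from olaparib was smaller in size for the simple-epithelial keratins than for KRT5, KRT16 and KRT17. KRT19 was at 13496, 14508 and 13632 untreated, 15641, 16158 and 17657 after olaparib, and 9303, 9491 and 9409 after olaparib with 2.5 µM CDDP, its lowest condition. Neither CDDP dose alone passed the test (-0.06 and -0.08), while 2.5 µM CDDP added to olaparib lowered it by -0.81 ± 0.05 on the log2 scale (limma, adjusted p = 4.54e-20) and 1 µM by -0.32 ± 0.05. In OlaR cells, which were at 15814, 15234 and 15862, 2.5 µM CDDP lowered it by -0.39 ± 0.05 (limma, adjusted p = 4.46e-09) and 1 µM by -0.20 ± 0.05, the latter lost without OlaR CDDP 1 replicate 3 (-0.17, limma, adjusted p = 0.0628). The effect of 2.5 µM CDDP was smaller in OlaR than in olaparib-treated parental cells by 0.42 ± 0.07 (limma, adjusted p = 4.33e-06). SUM1315 had 0 to 5 KRT19 reads in each of its 27 libraries, so no fold is given there. The 7 reads at 4 µM CDDP (2, 0 and 5) against 0 in control carry the difference between the lines in the response of KRT19 to the higher CDDP dose (1.44 ± 0.53, limma, adjusted p = 0.0355).

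KRT8, the type II partner of KRT18, rose with each single drug in SUM1315. It stood at 35.2, 39.2 and 17.7 adjusted counts untreated, 76.5, 91.5 and 81.9 after olaparib, 97.9, 154 and 64.4 after 2 µM CDDP and 89.3, 71.0 and 88.6 after 4 µM. Every one of these 9 treated libraries lay above the 3 untreated ones, with log2 differences of 1.48 ± 0.30 (limma, adjusted p = 1.94e-04), 1.73 ± 0.30 (limma, adjusted p = 2.79e-05) and 1.47 ± 0.30 (limma, adjusted p = 1.57e-04). With olaparib and CDDP together it stood lower: 56.2, 36.0 and 57.5 at 2 µM (-0.75 ± 0.30 against olaparib, limma, adjusted p = 0.153) and 52.7, 35.9 and 41.4 at 4 µM (-0.94 ± 0.30, limma, adjusted p = 0.0454). The 4 µM call was lost without any 1 of 5 libraries (-0.82 without olaparib + CDDP 4 replicate 2, limma, adjusted p = 0.174). The difference from 4 µM CDDP alone (-0.93) was lost without any 1 of 4 (-0.81 without the same library, limma, adjusted p = 0.136). OlaR cells (75.6, 56.3 and 110) exceeded untreated cells by 1.39 ± 0.30 and did not differ by the test from olaparib (-0.09; 95% interval -0.70 to 0.52).

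In MDA-MB-468, KRT8 was also lower with both drugs than with olaparib. It was at 668, 635 and 745 untreated, 820, 925 and 801 after olaparib, and 605, 536 and 448 after olaparib with 2.5 µM CDDP. The combination was lower than olaparib by -0.69 ± 0.09 (limma, adjusted p = 1.52e-08) and lower than 2.5 µM CDDP alone by -0.66 ± 0.09 (limma, adjusted p = 1.81e-07), and 1 µM added to olaparib lowered it by -0.46 ± 0.09. The small rises with olaparib (0.31 ± 0.09) and 2.5 µM CDDP (0.29 ± 0.09) were lost without control replicate 2 (0.26 and 0.24, limma, adjusted p = 0.0534 and 0.0762), and also without olaparib replicate 2 (0.25) or CDDP 2.5 replicate 1 (0.22). OlaR cells (678, 581 and 620) were below olaparib-treated cells by -0.44 ± 0.09 and did not respond to CDDP by the test (-0.01 and -0.15), an interaction of 0.54 ± 0.12 at 2.5 µM (limma, adjusted p = 0.00144).

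KRT18, the type I partner of KRT8, stayed between 584 and 834 adjusted counts in all 27 MDA-MB-468 libraries. Its 1 call there was OlaR against control (0.25 ± 0.08; 0.19 and adjusted p = 0.0601 by limma without control replicate 2). In SUM1315 it was at 335, 358 and 370 untreated, fell to 280, 247 and 231 with olaparib (-0.49 ± 0.12, limma, adjusted p = 0.00214) and rose to 598, 563 and 461 with 4 µM CDDP (0.60 ± 0.12, limma, adjusted p = 1.88e-04). Olaparib and 4 µM CDDP together gave 309, 267 and 288, below CDDP alone by -0.90 ± 0.12 (limma, adjusted p = 5.24e-06). The rise at 2 µM (0.34 ± 0.12) was lost without any 1 of 4 libraries (0.27 without CDDP 2 replicate 2, limma, adjusted p = 0.147). KRT8 and KRT18 thus moved in opposite directions after olaparib in SUM1315 and in the same direction after CDDP.

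KRT7, a type II keratin of glandular epithelium, was at 1508, 1305 and 1705 in untreated SUM1315, 592, 557 and 638 after olaparib, and 2379, 2478 and 2219 in OlaR cells, 3 groups with no overlap. Olaparib lowered it by -1.33 ± 0.11 (limma, adjusted p = 7.94e-12), and OlaR cells exceeded olaparib by 1.98 ± 0.11 (limma, adjusted p = 1.40e-16) and control by 0.65 ± 0.11. CDDP alone lowered it by -0.74 ± 0.11 at 2 µM and by -0.26 ± 0.11 at 4 µM, the latter lost without any 1 of 5 libraries (-0.17 without control replicate 3, limma, adjusted p = 0.241) and with log2 CPM (recovered reads scaled by library total) (-0.14, limma, adjusted p = 0.315). In OlaR cells 4 µM CDDP lowered it to 1694, 1426 and 1769 (-0.54 ± 0.11, limma, adjusted p = 4.61e-04), whereas added to olaparib in parental cells it made no difference that passed the test (0.13 ± 0.11), an interaction of -0.67 ± 0.15 (limma, adjusted p = 0.00468). In MDA-MB-468 the KRT7 values were 2290, 2063 and 2318 untreated and between 1407 and 1878 in the 15 treated parental libraries, with differences of -0.39 ± 0.07 for olaparib (limma, adjusted p = 1.95e-05), -0.38 ± 0.07 for 1 µM and -0.43 ± 0.07 for 2.5 µM CDDP. OlaR cells (2046, 1996 and 2120) were 0.28 ± 0.07 above olaparib, a call lost without olaparib replicate 3 (0.14, limma, adjusted p = 0.0555).

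KRT81, a type II hair-type keratin, moved in opposite directions in the OlaR cells of the 2 lines when both were set against olaparib-treated parental cells. In MDA-MB-468 it was at 132, 101 and 135 adjusted counts untreated, 97.9, 117 and 98.8 after olaparib, and 24.1, 30.4 and 26.7 in OlaR cells. All 9 OlaR libraries of that line lay between 17.6 and 46.6 and all 18 parental ones between 97.9 and 181. OlaR was below olaparib by -1.91 ± 0.18 (limma, adjusted p = 7.65e-13), 3.76-fold. In parental cells, CDDP added to olaparib raised it by 0.61 ± 0.18 at 2.5 µM (limma, adjusted p = 0.0102), lost without olaparib + CDDP 2.5 replicate 3 (0.52, limma, adjusted p = 0.0739) and when KRT81 was summed with KRT86 and KRT83 (0.34, limma, adjusted p = 0.134). A rise with 1 µM CDDP alone (0.50 ± 0.18, limma, adjusted p = 0.0447) was lost without any 1 of 5 libraries (0.37 without control replicate 2, limma, adjusted p = 0.235).

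In SUM1315, KRT81 was read at 31, 13 and 22 reads untreated, 4, 4 and 5 after olaparib, and 34, 12 and 9 in OlaR cells. Olaparib lowered it by -2.12 ± 0.62 on the log2(value + 1) scale (limma, adjusted p = 0.00702). The ratio per read of OlaR to olaparib was 7.22 (exact 95% counting interval 3.90 to 14.4), and that of OlaR to control was 1.37 (0.941 to 1.99), with overlapping libraries. Its log2 difference from olaparib was 2.47 ± 0.62 (limma, adjusted p = 0.00131), and 1.25 (limma, adjusted p = 0.0125) when KRT81 was summed with KRT86 and KRT83. The lines differed in the OlaR change by 4.38 ± 0.64 (limma, adjusted p = 2.62e-07).

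**Figure D4:**
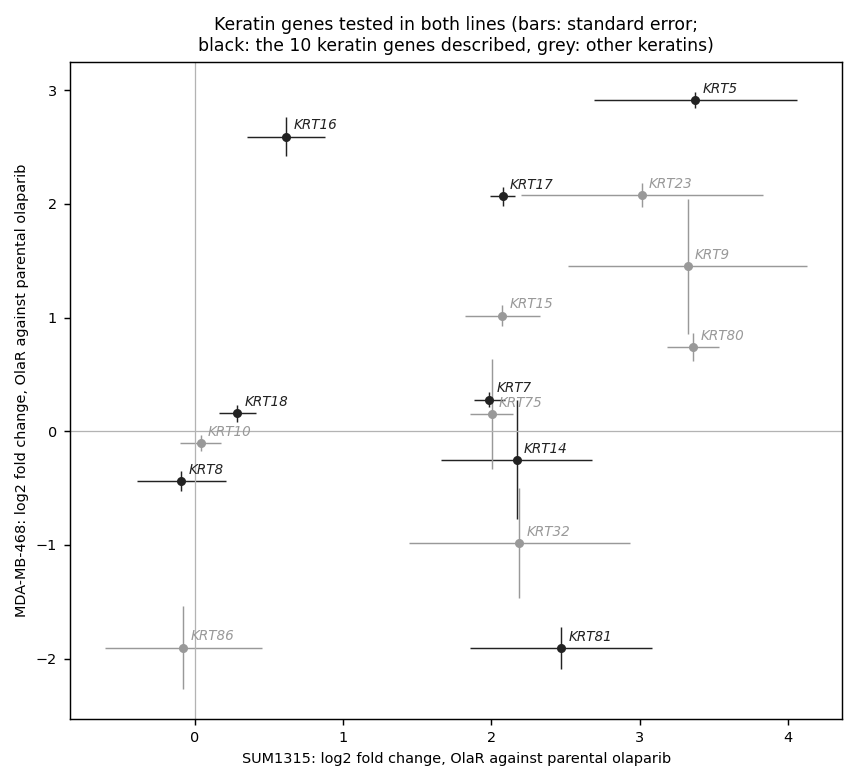
Log2 fold change of OlaR against olaparib-treated parental cells in SUM1315 (x axis) and MDA-MB-468 (y axis) for the 8 described (black) and 8 other (grey) keratin genes tested in both lines, with standard errors as bars. KRT5 and KRT17 sit at the upper right, KRT16 is high on the MDA-MB-468 axis only (2.59 against 0.61), and KRT81 lies at 2.47 in SUM1315 and -1.91 in MDA-MB-468.

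The line differences in the test of resistance and of the higher CDDP dose covered all 10 members. For OlaR against olaparib, 5 of 10 members differed between the lines where 41.7% of all genes did. KRT6A is among these 5, although it reached the filter only through SUM1315 OlaR libraries, so that its direction was fixed. For the higher CDDP dose against control, 6 of 10 did where 27.5% of all genes did. Within a line, the interaction of CDDP with resistance was called for 2 of 9 members in SUM1315 (6.4% of all genes) and 3 of 9 in MDA-MB-468 (15.0%).

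Of the 45 other keratin genes, 12 were tested in SUM1315 and 11 in MDA-MB-468. In SUM1315, KRT31, KRT32, KRT33B and KRT9 reached the filter only through the OlaR libraries in which they were high, so that their direction was fixed, and KRT23 did not reach it in parental or OlaR libraries alone. Of the other 7, 4 were higher and 0 lower in OlaR cells than after olaparib (median log2 difference 2.00), where 47.2% of all genes were called. In MDA-MB-468, 7 of 11 were higher and 1 lower (0.74), where 51.5% of all genes were called. The median log2 difference of all genes was -0.045 in SUM1315 and -0.03 in MDA-MB-468. KRT15, a type I keratin of basal epithelial cells, rose in both: 25.0, 37.7 and 39.0 to 143, 135 and 152 in SUM1315 (2.07 ± 0.25, limma, adjusted p = 3.01e-08), and 326, 342 and 322 to 652, 721 and 638 in MDA-MB-468 (1.02 ± 0.09, limma, adjusted p = 7.73e-14). In MDA-MB-468, olaparib alone had already raised it from 162, 142 and 169 (1.07 ± 0.09), as it had KRT5. KRT34, a type I hair keratin, was at 39.4, 40.4 and 49.6 in untreated SUM1315, 0, 0.812 and 3.00 after olaparib and 445, 463 and 489 in OlaR cells. It was the keratin with the largest log2 difference of OlaR from olaparib in SUM1315 (7.91 ± 0.60, limma, adjusted p = 1.34e-12), a size that depends on the pseudocount since olaparib left it near 0, and in MDA-MB-468 it stayed under 10.

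The hair keratins KRT31 and KRT33B, which reached the filter only there, stood at means of 9.79 ± 2.14 and 22.6 ± 10.8 (SD, n = 3) in SUM1315 OlaR cells. After olaparib KRT31 was at 0 in all 3 libraries and KRT33B at a mean of 1.61 ± 1.46. KRT75, a type II keratin of the hair follicle, was at 582, 690 and 938 in untreated SUM1315, 131, 133 and 152 after olaparib and 586, 512 and 573 in OlaR cells. Its OlaR libraries thus lay above those after olaparib, as for KRT7, but unlike KRT7 they did not stand above the untreated ones. KRT80, a type II keratin, rose in both OlaR lines against olaparib, by 3.36 ± 0.18 in SUM1315 (limma, adjusted p = 9.52e-17) and 0.74 ± 0.12 in MDA-MB-468 (limma, adjusted p = 8.60e-07). KRT23, a type I keratin, rose by 2.08 ± 0.11 in MDA-MB-468 OlaR cells (limma, adjusted p = 7.67e-23), from 188, 162 and 133 to 672, 650 and 710. KRT86, whose span holds KRT81, fell there with KRT81, from 38.1, 46.8 and 47.7 to 6.38, 13.4 and 15.4 (-1.90 ± 0.36, limma, adjusted p = 1.47e-05).

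Keratin filaments are anchored at desmosomes, which join cells, and at hemidesmosomes, which attach them to the basement membrane. Of 12 desmosome and linker genes, 7 were tested in SUM1315. The cadherins DSC2 and DSC3 reached the filter there only through the OlaR libraries in which they were high, and of the other 5, 3 were higher and 0 lower in OlaR cells against olaparib (47.2% of all genes called). In MDA-MB-468, 9 were tested, of which 3 were higher and 4 lower (51.5% of all genes called). These shares of all genes apply to the OlaR counts of each list that follows. The desmosomal cadherin DSC3 rose in MDA-MB-468 OlaR cells from 75.0 ± 4.62 to 387 ± 9.6 (SD, n = 3), a log2 difference of 2.35 ± 0.15 (limma, adjusted p = 9.61e-19). Of 7 hemidesmosome genes, 3 were higher and 1 lower in SUM1315 OlaR cells, among them COL17A1 (collagen XVII), which rose from 139 ± 23.9 to 3775 ± 81.8 (4.77 ± 0.17, limma, adjusted p = 4.42e-21). In MDA-MB-468, 3 of 5 tested were higher. LAMB3 went there from 4.48, 8.15 and 3.86 after olaparib (8, 11 and 5 reads) to 92.0, 104 and 77.1 in OlaR cells, a larger rise than that of DSC3. Between the untreated lines, where 72.7% of all genes differed, COL17A1 and LAMA3 reached the filter only in SUM1315, and the other 5 were all higher in SUM1315.

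Of 14 epithelial transcription factors, 11 were tested in SUM1315, with 6 higher and 1 lower in OlaR cells, and 13 in MDA-MB-468, with 4 higher and 4 lower, 1 of the latter (GRHL3) having reached the filter only through parental libraries. TFAP2A, which encodes an AP-2 factor, rose in SUM1315 (1.09 ± 0.10, limma, adjusted p = 9.46e-11) and did so together with EHF (0.95 ± 0.11), while KLF4 fell (-1.17 ± 0.31, limma, adjusted p = 0.00246). OVOL1 fell in MDA-MB-468 (-1.22 ± 0.21, limma, adjusted p = 2.02e-06). TP63, the p63 gene of basal epithelial cells, was at 478 ± 124 in untreated SUM1315 and 1.01 ± 1.24 in MDA-MB-468, so that the line with more KRT5 was the one with fewer TP63 reads (1, 0 and 3). Of 6 other intermediate filament genes, 5 were tested in SUM1315, where 1 was higher and 2 lower in OlaR cells, and 4 of 6 were lower in MDA-MB-468, among them NES (-1.04 ± 0.26, limma, adjusted p = 6.23e-04). VIM was at 11978 ± 463 in untreated SUM1315 and 35.3 ± 18.7 in MDA-MB-468.

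Since parental and OlaR libraries formed separate groups for several genes, correlations are given within each, as descriptions over libraries that share conditions. For the type II and type I partners, Pearson's r of KRT5 with KRT14 was -0.01 over the 18 parental and -0.19 over the 9 OlaR libraries of SUM1315, and 0.26 and 0.19 in MDA-MB-468. For KRT8 with KRT18 it was 0.33 and -0.12 in SUM1315 and 0.22 and 0.58 in MDA-MB-468. For KRT6A with KRT17 in SUM1315 it was -0.38 and 0.00, and with KRT16 0.02 and 0.24. KRT5, KRT6A and KRT14 had at most 17, 60 and 33 reads in any SUM1315 library, and KRT14 at most 28 in MDA-MB-468. Counting error limits r for pairs with these genes, so a value near 0 cannot show that partners moved apart. KRT7 with KRT19 gave 0.04 and 0.26 in MDA-MB-468. KRT5 with KRT17, a pair added after the data were seen, gave -0.37 over the parental and 0.72 over the OlaR libraries of SUM1315, the highest of these values within a group, from 4 to 17 KRT5 reads a library. In MDA-MB-468 it gave -0.11 and -0.38, although both genes were higher in every OlaR library than in any parental one.

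**Figure D5:**
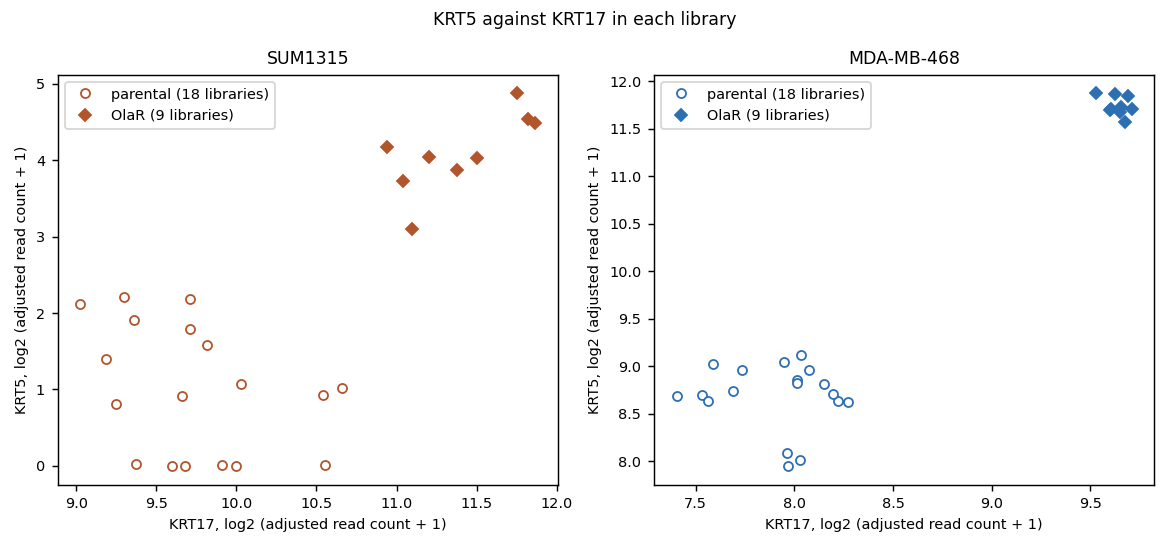
KRT5 (y axis) against KRT17 (x axis) in each library, both as log2 (adjusted read count + 1), for SUM1315 and MDA-MB-468, with open circles for 18 parental and filled diamonds for 9 OlaR libraries. The OlaR libraries form a separate group at the upper right in both lines, and r of the 2 genes is -0.37 over the parental and 0.72 over the OlaR libraries in SUM1315, and -0.11 and -0.38 in MDA-MB-468.

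The genes most like each keratin were sought among the 9437 (SUM1315) and 9343 (MDA-MB-468) genes with a mean of at least 50, keratin genes left out. The measure was Pearson's r over the 27 libraries of a line, a value that the gap between parental and OlaR libraries raises. For KRT5 in MDA-MB-468 they were AKR1B1 and CAV1, each with r = 0.989 over all, 0.71 and 0.66 over the 18 parental and 0.37 and 0.45 over the 9 OlaR libraries. CAV1, which encodes caveolin-1, had a mean of 122 untreated, 174 after olaparib and 1360 in OlaR cells. KRT17 was most like INHBA (0.981) and SAT1 (0.976) in MDA-MB-468, with 0.69 and 0.55 over the parental and 0.60 and -0.06 over the OlaR libraries, and like C3 (0.966) and TPM4 (0.953) in SUM1315, with 0.90 each over the parental and 0.70 and 0.76 over the OlaR libraries. KRT16 was most like RANBP1 (0.969) and NCAPH2 (0.963) in MDA-MB-468, with 0.77 and 0.75 over the parental and 0.22 and 0.31 over the OlaR libraries, and like PYCR1 (0.886) and SOX4 (0.866) in SUM1315, with 0.91 and 0.93 and with 0.39 and 0.61. KRT19 in MDA-MB-468 was most like RAC1 (0.901) and SUN2 (0.898), with 0.92 and 0.89 over the parental and 0.87 and 0.95 over the OlaR libraries. KRT81 there was most like HAUS4 (0.966) and TIMP1 (0.965), with 0.64 and 0.51 and with 0.12 and 0.29. KRT7 in SUM1315 was most like SRM and CDCP1 (0.943 each), with 0.88 and 0.90 over the parental and 0.69 and 0.81 over the OlaR libraries. KRT6A there was most like ADGRF1 (0.932) and UGT2B7 (0.926), with 0.60 and 0.57 and with -0.09 and -0.47, and KRT8 like LMNB2 (0.892), a nuclear lamin gene, with 0.90 and 0.56. KRT14 in MDA-MB-468, which was not called in any comparison, had no gene above 0.583 among those searched.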

How the data were processed

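RNA of 54 cell line libraries (18 conditions, 3 libraries each) was made into 3′ end libraries with the QuantSeq kit. Per the submitters' processing notes and methods, reads were demultiplexed with CASAVA 1.8.2, checked with FastQC, aligned with STAR to hg38, counted with HTSeq and analysed in edgeR; the annotation and the strand setting of the counting are not given in the sources used here. The deposited table gives a signal per gene and library, the read count that the authors adjusted to a common library size, and its values are not whole. The deposited comparison tables hold log2 fold changes and p-values of the authors and were not used. The adjustment was inverted to give back whole reads (100% of 1483380 values returned within a relative 1e-06), for depth, ratios of low genes and an alternative scale.

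Values were tested as log2(value + 1) with limma 3.58.1 in R 4.3.3 (empirical Bayes with an intensity trend), with genes at 10 or more in at least 3 libraries, all 27 libraries of a line in a fit (all 54 for comparisons between lines), and Benjamini-Hochberg adjustment over all genes tested. The procedure was tested on simulated data. Since the values used are not whole counts, no count model was fitted. Intervals on ratios are exact binomial ones and cover counting error only. Replicate libraries differed by more than sampling noise (chi-square per degree of freedom 1.60 to 22.1). In untreated SUM1315 it was 3.59 between replicates 1 and 2, but 15.2 and 20.1 between these and replicate 3. After olaparib in SUM1315 the corresponding values were 2.90, 8.72 and 8.73, so that replicate 3 stood apart in both groups. The highest value came from parental SUM1315 at 2 µM CDDP, with 7.28 between replicates 1 and 2, 9.93 between 1 and 3 and 22.1 between 2 and 3. Keratin changes at that dose carry this limit. Groups were taken from the sample labels, in which µM is also written as mM. Alternatives were other pseudocounts, no filter, other scalings, a fold limit, the replicate number as a block, fewer libraries per fit, summed near-identical copies and leaving out each library.

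All 10 keratin genes were named. Other keratins were named at a mean of 50 or more in a line or a call of at least 2-fold, and at most 4 genes per comparison from each group of listed genes, those with the largest change. The genes and lists were chosen with earlier results of these data known.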

Additional observations from a re-analysis of the deposited data

Results flagged for a closer look

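The following differences between effects passed their own test (limma, adjusted p at most 0.05). In SUM1315 the effect of 4 µM CDDP was lower in OlaR than in olaparib-treated parental cells for KRT17 (-0.71 ± 0.12 on the log2 scale) and KRT7 (-0.67 ± 0.15). In MDA-MB-468 the corresponding effect of 2.5 µM CDDP was lower for KRT17 (-0.47 ± 0.12) and higher for KRT19 (0.42 ± 0.07) and KRT8 (0.54 ± 0.12).

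The OlaR effect differed between the lines, SUM1315 minus MDA-MB-468, for KRT14 (2.42 ± 0.73), KRT16 (-1.98 ± 0.32), KRT6A (4.59 ± 1.01), KRT7 (1.71 ± 0.13) and KRT81 (4.38 ± 0.64). KRT6A was near 0 in MDA-MB-468 and reached the filter on low values only through SUM1315 OlaR libraries, so that its direction was fixed. Its value was 2.59 when it was summed with its near-identical copies.

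The effect of the higher CDDP dose differed between the lines for KRT16 (-2.83 ± 0.32), KRT17 (-1.48 ± 0.11), KRT18 (0.565 ± 0.14), KRT19 (1.44 ± 0.53), KRT8 (1.185 ± 0.324) and KRT81 (-1.83 ± 0.64). The doses were 4 µM in SUM1315 and 2.5 µM in MDA-MB-468. The KRT19 value rests on 7 reads in SUM1315. The KRT81 difference was lost without MDA-MB-468 control replicate 2 (-1.70), SUM1315 control replicate 1 (-1.62) or 3 (-1.76), or SUM1315 CDDP 4 replicate 1 (-1.617) or 2 (-1.64).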

How the results depend on the processing

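Of 103 keratin changes called, 83 were called under every alternative but the fold limit, and 0 reversed. The 103 include calls of genes that reached the filter only through the libraries in which they were high. These are KRT5 and KRT6A in SUM1315 OlaR cells against olaparib and against control, the KRT6A line difference and KRT19 between the untreated lines. Their direction was fixed, so their stability is no support. The KRT5 difference between lines in the OlaR effect, which was not called, reversed to -0.796 with a pseudocount of 5 and to -0.165 without SUM1315 olaparib replicate 1 (up to 0.925 without replicate 2). With a fold limit of 2, the members called fell to 0 in SUM1315 for olaparib + CDDP 4 against olaparib and against CDDP 4, OlaR at either CDDP dose and the interaction, and in MDA-MB-468 for olaparib, olaparib + CDDP 1, olaparib + CDDP 2.5 against either drug alone, OlaR at either CDDP dose and the interaction. They fell to 2 for CDDP 1 and 1 for CDDP 2.5 in MDA-MB-468. For olaparib + CDDP 2 against olaparib in SUM1315 the count became 1 (KRT7) with median-of-ratios scaling, log2 CPM or only the conditions compared, and for olaparib + CDDP 4 it became 0 with no filter or log2 CPM. Leaving out a library gave 0 to 1 for the former (1 without olaparib replicate 3) and 0 to 1 for the latter (0 without olaparib replicate 1, 2 or 3 or olaparib + CDDP 4 replicate 2 or 3). It gave 2 to 4 for olaparib + CDDP 4 against CDDP 4 (2 without CDDP 4 replicate 3 or olaparib + CDDP 4 replicate 2). In MDA-MB-468 it gave 3 to 5 for CDDP 2.5 (3 without control replicate 2 or CDDP 2.5 replicate 1), 2 to 4 for olaparib + CDDP 1 (4 without olaparib replicate 3) and 0 to 1 for OlaR at CDDP 1 (0 without OlaR CDDP 1 replicate 3). The cause of these changes was not tested. Same-numbered libraries of different conditions shared little deviation over all genes tested (correlation -0.098 to 0.163 in SUM1315 and -0.047 to 0.043 in MDA-MB-468). This value over all genes cannot decide whether single genes share a replicate effect. With the replicate block, the count of members called moved in 3 of 25 comparisons: OlaR against olaparib in SUM1315 gave 7, with KRT18 added, and in MDA-MB-468 CDDP 1 gave 3, without KRT81, and olaparib + CDDP 1 gave 3, with KRT16. The edgeR and DESeq2 tests planned for whole counts were not run. Depth limits KRT5, KRT6A, KRT14, KRT19 and KRT81 in SUM1315, which had at most 17, 60, 33, 5 and 34 reads in any library, and KRT14 and KRT6A in MDA-MB-468, with at most 28 and 7.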
